A study of Mus musculus with 23 samples.

Results

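The regions described here are ATAC-seq peaks that were at least 2-fold higher in both liver populations of the study, type 1 innate lymphoid cells (ILC1s) and natural killer (NK) cells, than in salivary gland ILC1s and spleen NK cells. ATAC-seq counts reads at chromatin that a transposase can enter, and a peak is a stretch where such reads pile up. A peak was a member when the lower of the 2 liver means reached 2 CPM (the peak's count divided by the library's sum over all peaks, times 1000000) and was at least 2 times the higher of the 2 other means. Of 51412 peaks, 2853 (5.55%) met this rule. The same rule with the populations exchanged found 398 peaks higher in ILC1s of both organs, 768 higher in NK cells of both organs, and 1 higher in salivary gland ILC1s and spleen NK cells. Because the measured levels chose the members, their liver excess is a description and is not tested.

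Each ATAC population had 2 libraries of 50000 sorted mouse cells, frozen and thawed before the transposition. The sample labels disagree on the sort. Their cell type field names S1pr5eGFP+ NK cells and GzmC+GzmcFM+ ILC1s (granzyme C with a fate-map mark), whereas the series text gives NK1.1+NKp46+CD49a-CD49b+ for NK cells and NK1.1+NKp46+CD49a+ for ILC1s. Spleens were only disrupted mechanically, livers were digested with Collagenase D, and salivary glands with Collagenase Type III and DNase I, so organ and digestion cannot be told apart. RNA-seq covered the liver alone, in 6 mice, with 1 mouse per library: 4 libraries of S1pr5eGFP+ NK cells and 11 of ILC1s. The ILC1 libraries were 4 with present granzyme C and the fate-map mark (DP), 4 with the mark only (FMSP) and 3 with neither (DN). Strain, age and sex are not given in the sources used here.

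NK cells circulate between blood and tissues, while ILC1s reside in tissue and leave it rarely. ILC1s of the liver depend on the transcription factor T-bet, and NK cells on T-bet and Eomes. Accessible peaks include the promoters and enhancers that a cell type can use, and lymphocytes acquire some of their accessible sites only after they enter a tissue.

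Only 101 of the 2853 members covered a whole start-site window, so the windows below are examples and do not stand for the members at large. Each window below is 300 bases of the RefSeq table for build GRCm38.p6, from 250 bases before to 50 after a start site, printed 5′ to 3′ in the gene's direction and wholly inside a member. Capitals mark matches, on either strand, to 1 of 4 short patterns: GGTGTGA (T-box factors), TGTGGTT (RUNX), CAGGAAG (ETS) and CAAAGTCCA (HNF4). A match is a description of letters, not a bound site. The first 4 windows are shown because they lie in members that kept the 2-fold excess after the libraries' level trend was removed, as explained below, and they are all such windows that can be printed. Ccr8 and Mrgpra9 follow because their RNA also differed between the liver populations.
Ugt1a1 (chr1:88211709-88212008, plus strand): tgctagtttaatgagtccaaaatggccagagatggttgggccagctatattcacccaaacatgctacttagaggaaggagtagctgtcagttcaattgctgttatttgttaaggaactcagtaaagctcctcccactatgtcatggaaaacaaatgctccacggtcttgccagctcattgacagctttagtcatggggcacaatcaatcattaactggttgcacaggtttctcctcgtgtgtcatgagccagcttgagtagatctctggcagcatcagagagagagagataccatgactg
Gm31160 (chr5:137179115-137179414, minus strand): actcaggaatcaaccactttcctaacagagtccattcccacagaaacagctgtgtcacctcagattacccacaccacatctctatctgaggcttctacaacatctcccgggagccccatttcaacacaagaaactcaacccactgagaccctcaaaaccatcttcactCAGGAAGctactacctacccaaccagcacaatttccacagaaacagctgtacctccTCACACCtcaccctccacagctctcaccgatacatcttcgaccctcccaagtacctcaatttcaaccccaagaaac
Dock3 (chr9:107231860-107232159, minus strand): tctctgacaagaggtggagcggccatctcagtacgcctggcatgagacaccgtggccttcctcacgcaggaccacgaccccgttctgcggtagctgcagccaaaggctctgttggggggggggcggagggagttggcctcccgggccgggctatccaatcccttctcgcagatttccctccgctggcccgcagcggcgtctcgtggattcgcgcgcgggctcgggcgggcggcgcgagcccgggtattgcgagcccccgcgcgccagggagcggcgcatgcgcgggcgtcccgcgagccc
Lypd11 (chr7:24724241-24724540, minus strand): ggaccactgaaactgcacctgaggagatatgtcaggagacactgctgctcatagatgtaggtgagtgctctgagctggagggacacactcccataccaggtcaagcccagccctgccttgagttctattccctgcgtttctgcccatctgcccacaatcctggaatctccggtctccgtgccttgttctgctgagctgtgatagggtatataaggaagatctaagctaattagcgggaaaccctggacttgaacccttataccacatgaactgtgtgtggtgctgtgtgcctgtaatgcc
Ccr8 (chr9:120091883-120092182, plus strand): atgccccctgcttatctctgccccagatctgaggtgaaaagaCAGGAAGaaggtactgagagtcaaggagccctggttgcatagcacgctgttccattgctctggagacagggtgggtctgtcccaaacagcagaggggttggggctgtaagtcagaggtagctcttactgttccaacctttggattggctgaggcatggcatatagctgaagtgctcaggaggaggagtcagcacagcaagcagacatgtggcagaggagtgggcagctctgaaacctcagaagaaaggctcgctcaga
Mrgpra9 (chr7:47252830-47253129, minus strand): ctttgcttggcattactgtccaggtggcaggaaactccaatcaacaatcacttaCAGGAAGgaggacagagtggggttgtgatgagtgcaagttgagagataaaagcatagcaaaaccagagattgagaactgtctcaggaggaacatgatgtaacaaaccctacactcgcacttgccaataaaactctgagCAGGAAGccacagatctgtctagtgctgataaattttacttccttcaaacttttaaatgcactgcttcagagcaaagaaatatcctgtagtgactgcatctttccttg
The Dock3 window has 71.7% G and C and 37 CpG pairs, while those of Ugt1a1, Ccr8 and Mrgpra9 hold 45.3%, 54.0% and 42.7% with 2, 2 and 1 CpG pairs. Gm31160 has 1 T-box and 1 ETS match, Ccr8 has 1 ETS match and Mrgpra9 has 2. The other 3 windows have no match to the 4 patterns.

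The liver libraries stood apart before any peak was chosen. They held 5609587 to 9957335 counts in peaks, against 11101944 to 26944890 in the other 4, and peaks typed as promoters took 53.6% to 60.4% of their counts against 61.4% to 65.2%. Weak peaks were higher and strong peaks lower in the liver libraries. In the weakest decile (a 10% class by mean CPM) of all peaks the median ratio of the lower liver mean to the higher other mean was 1.22, and in the strongest decile it was 0.653. Members followed this trend. Of the 2853 members, 2466 (86.4%) lay among the weaker 5 deciles, where 9.59% of peaks were members, against 0.305% in the 3 strongest deciles. A member had a median of 37 to 71 counts per library. When each library's smooth trend of log2 CPM against mean level was removed, an alternative chosen after seeing the data, 209 of the 2853 members (7.33%) still met the rule and 1 other peak joined them. The median ratio of members was 2.35 before and 1.38 after. Because weak peaks were higher and the strongest lower in the liver libraries, this scaling lowers the ratio of weak members and raises that of the strongest. It kept 27 of the 481 members of the weakest decile, and all 13 and all 17 of the 2 strongest deciles. For strong members, being kept was therefore largely set in advance. Under the same scaling the 2 lineage patterns grew, to 597 peaks for ILC1s of both organs and 847 for NK cells of both organs, and the pattern of salivary gland ILC1s with spleen NK cells went from 1 to 55 peaks. The members are therefore called by their rule, peaks higher in both liver populations, and the 209 are called the trend-robust members. The part of the level trend in the liver excess of any single peak was not tested.

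**Figure D1:**
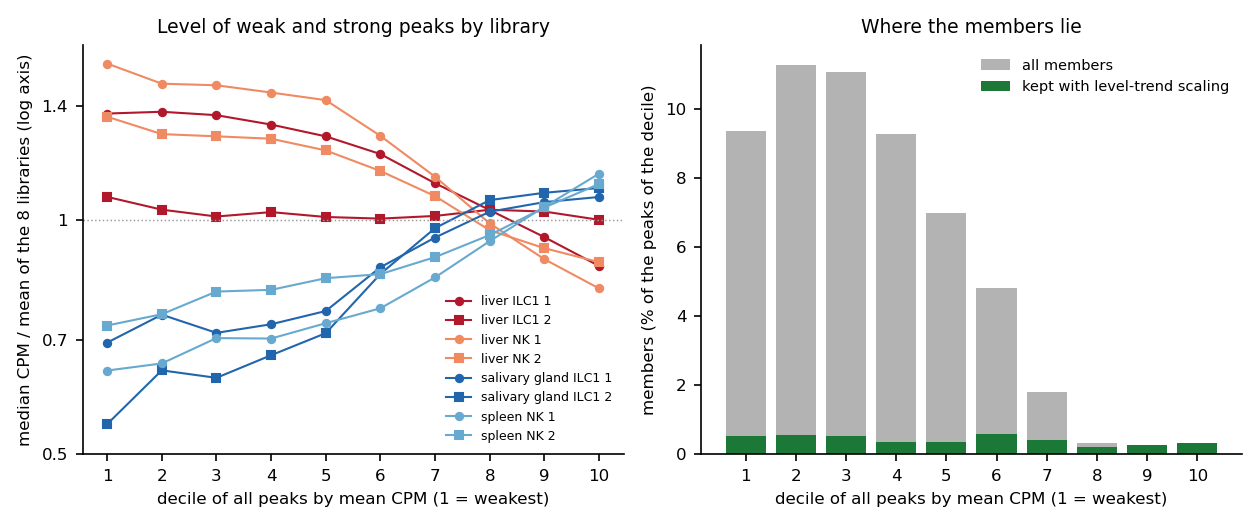
Left, the median CPM of each library in each decile of all peaks by mean CPM, divided by the mean over the 8 libraries (log axis); circles are replicate 1 and squares replicate 2. Right, the members as a percent of the peaks of each decile (grey) and those kept after level-trend scaling (green). The 4 liver libraries lie above the other 4 in deciles 1 to 7, the deciles that hold nearly all members, and in the strongest decile they lie below them.

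**Figure D2:**
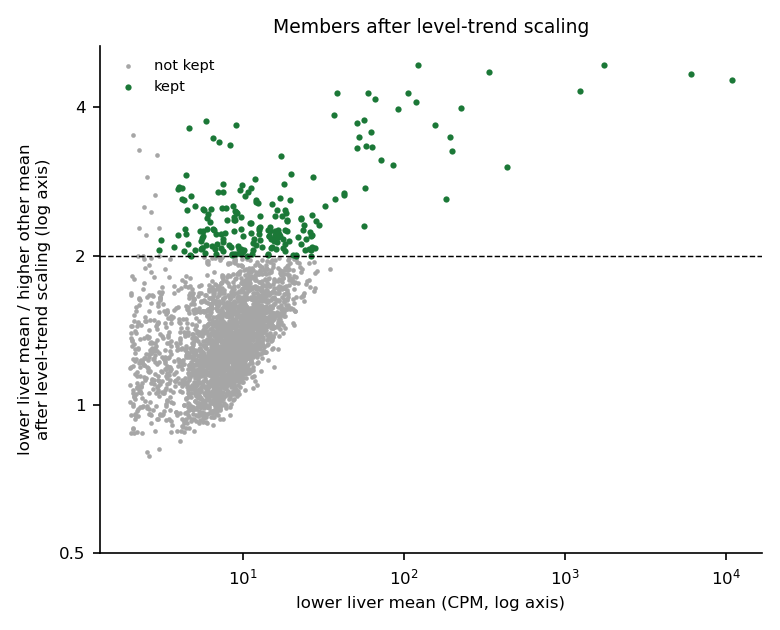
Each point is a member; the x axis is the lower liver mean in CPM (log axis) and the y axis the ratio of the lower liver mean to the higher other mean after level-trend scaling (log axis), with a dashed line at 2. Of the 2853 members, 209 were kept (green), and the strongest of these reach ratios of 4 to 5; the few grey points above the line fell under 2 CPM after scaling.

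Members lay away from promoters more often than other peaks did. By the authors' types, 546 members (19.1%) were promoter peaks, against 35.0% of all peaks, 1012 (35.5%) were intronic against 29.7%, 1072 (37.6%) were intergenic against 28.6%, and 223 (7.82%) were exonic against 6.66%. Their centres lay a median of 23954 bases from the nearest RefSeq start, compared with 15228 for all peaks and 21677 for the other peaks of the weaker 5 deciles. Members spanned a median of 880 bases, against 999. They were assigned to 2044 genes, and 444 members (15.6%) had no gene, against 10.7% of all peaks. Most genes had a single member (1774 of 2044), and the other peaks of member genes had a median ratio of 0.941, against 0.893 over all peaks.

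The strongest members were mostly assigned to predicted genes, and no annotation of repeats was used here. Gm10800 and Gm10801, predicted genes on chromosome 2 where the mouse assembly is known for satellite sequence, had the 2 highest levels. The Gm10800 peak at chr2:98666067-98667507 reached 11905 and 9795 CPM in liver ILC1s, 9798 and 12074 in liver NK cells, 4730.1 and 3199 in salivary gland ILC1s, and 3509 and 2785 in spleen NK cells. The Gm10801 peak at chr2:98662087-98663088 ran from 5488 to 6806 CPM in the liver libraries and from 1646 to 2465 in the others. All 4 liver libraries were above all 4 others at both, by 2.74 times and 2.88 times for the group means that the rule compares. After level-trend scaling the ratios were 4.54 and 4.67. The scaling raises the ratio of peaks as strong as these, so nothing is read from the rise. RP23-456L15.4 (chr9:35304966-35305767) and Gm21738 (chr14:19415616-19419609) followed, at liver means of at least 1747 and 1244 CPM. An intergenic peak assigned to Gm28502 (chr15:75085300-75087234) ran from 318 to 430.2 CPM in the liver libraries and from 81.7 to 106 in the others. On chromosome 9 all 16 peaks in the first 40 kb that carry peaks were members, among them Gm10722, Gm10719, Gm10717 and Gm17535, a cluster of predicted genes at the centromeric end of the assembly. Over all chromosomes, 37 of the 223 peaks that start below 3.5 Mb were members (16.6%), a limit chosen after seeing the values, and 23 of them were trend-robust. Where reads from repeats are placed depends on settings of the alignment that are not given in the sources used here, and their part in these levels was not tested. The 14 members with liver means above 100 CPM took 1.99% to 2.44% of the counts of a liver library and 0.575% to 0.923% of the others, and the remaining members took 2.31% to 3.34% and 0.635% to 1.13%.

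Among strong members assigned to other than predicted genes, Ugt1a10, Aida, Coil and P4ha2 are described because they were trend-robust. This choice was made after their values were seen. All 17 members of the strongest decile and all 13 of the next were trend-robust, so being kept does not set such peaks apart. No annotation of repeats was used for these peaks either, and the part of repeats in their levels was not tested. The peak assigned to Ugt1a10 (chr1:88211576-88215133) covers the RefSeq start of Ugt1a1, which encodes the enzyme that conjugates bilirubin in hepatocytes and shares its last exons with Ugt1a10. Its levels were 136 and 102 CPM in liver ILC1s, 139 and 145 in liver NK cells, 28.0 and 20.3 in salivary gland ILC1s, and 28.8 and 41.0 in spleen NK cells. The liver libraries were 3.41 times the others by the rule and 4.11 times after level-trend scaling, while 4 other peaks assigned to Ugt1a10 were no members. The Aida peak (chr1:183298976-183299747), at a gene of axis formation, ran from 122 to 163 CPM in the liver libraries and from 23.2 to 35.8 in the others. The promoter peak of Coil (chr11:88967749-88969502), which encodes the Cajal body protein coilin, ran from 52.7 to 70.2 CPM in the liver libraries and from 6.53 to 20.1 in the others. An intergenic peak assigned to P4ha2 (chr11:54139788-54140869), a collagen prolyl hydroxylase gene, ran from 35.0 to 41.9 CPM in the liver libraries and from 6.73 to 10.5 in the others. In none of these 4 did the groups overlap, as in 98.2% of all members and 22.6% of all peaks. The rule used these values, and nothing is read from it. An exonic peak of Chl1, a neural adhesion gene, was the strongest outside predicted genes, from 386 to 494 CPM in the liver libraries and from 147 to 255 in the others. RNA of P4ha2 and Chl1 was at most 3.98 and 3.01 CPM in any liver RNA library. That of Aida and Coil reached 35.3 and 19.4 CPM.

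The largest ratios belonged to weaker peaks, most of them outside promoters. Among members with liver means of at least 4 CPM, an intergenic peak without a gene at chr13:52195572-52196188 led with a ratio of 7.38, from 4.63 to 9.55 CPM in the liver libraries and from 0.408 to 1.08 in the others. An intergenic peak assigned to Spink2 (chr5:77200718-77201425), a protease inhibitor gene, had a ratio of 7.23, from 5.32 to 8.60 CPM in the liver libraries and from 0.594 to 1.17 in the others. Peaks assigned to 2810433D01Rik, Gm11515, Sept9 (a septin gene), Armc2, Bach2 and Nipbl had ratios of 7.23, 6.95, 6.67, 6.06, 6.03 and 5.99. All 8 were trend-robust, at ratios of 2.48 to 3.76 after scaling. In all, 418 members had a ratio of at least 3, 90 of at least 4 and 24 of at least 5.

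Of the 2853 members, 2801 (98.2%) had every liver library above every other library, where 22.6% of all peaks did; the rule used these values and nothing is read from the count. Members next to the thresholds were close to peaks that missed them. Just inside the fold limit lay Gm37489, Mfsd4b4 and Pard3, and just outside it Krt18, Mecom and Vamp1, all at a ratio of 2.00. Just inside the level limit lay peaks of Gm43950 and Mapt and a peak without a gene, and just outside it peaks of Cdh6 and Dfna5 and another without a gene, with lower liver means of 1.99 to 2.00 CPM. Leaving out the first liver ILC1 library took the members to 1705, of which 1608 were among the 2853, and leaving out the second took them to 4106.

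Lists of NK cell and ILC1 genes were counted next. Of 79 peaks at 18 conventional NK cell genes none was a member, and of 145 peaks at 20 liver ILC1 genes 7 were (4.83%, near the 5.55% of all peaks). Peaks of such lists are often strong, a class in which members are rare: 33 of the 79 NK cell peaks, 76 of the 145 ILC1 peaks and 20 of the 89 peaks of the immediate early list lay in the weaker 5 deciles. Those 7 were 6 intronic peaks of Rora, which encodes the nuclear receptor RORα, and 1 promoter peak of Thy1, a surface glycoprotein. None of the 36 peaks of cytotoxic granule genes, 60 of checkpoint receptor genes, 35 of interferon-stimulated genes or 55 of cell cycle genes was a member. The tissue residency list had 1 of 81 (Ccr8), the cytokine and receptor list 1 of 124 (Tgfbr1, a receptor for TGF-β), the immediate early list 2 of 89 (Ier5 and Tnfaip3), the lipid and nuclear receptor list 3 of 95 (Pparg, Rxra and Scd1) and the glycolysis list 1 of 55 (Gpi1). Apart from the list of transcription factors, none of these lists held a trend-robust member.

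Lymphocyte transcription factors had 17 members among 290 peaks (5.86%), close to the share of all peaks. They included peaks at Rora (6 of its 19 peaks), Bach2 (4 of 24) and Zbtb16 (2 of 21), and 1 each at Irf4, Nfil3, Runx2 and Tox. Bach2, a repressor that restrains effector differentiation, had the peak with the highest ratio, an intronic one at chr4:32371722-32372270 with 4.89 and 4.32 CPM in liver ILC1s, 4.07 and 4.99 in liver NK cells, 0.872 and 0.631 in salivary gland ILC1s, and 0.771 and 0.540 in spleen NK cells. Zbtb16, which encodes PLZF, a factor of innate lymphoid precursors, had an intronic peak at chr9:48670316-48671752 with 15.7 and 9.84 CPM in liver ILC1s, 16.6 and 17.3 in liver NK cells, 1.37 and 1.93 in salivary gland ILC1s, and 3.08 and 4.05 in spleen NK cells. These 2 peaks were the trend-robust ones of the list, at ratios of 2.48 and 2.29 after scaling. The 6 Rora peaks had ratios of 2.01 to 4.05 before scaling and 1.19 to 1.68 after it.

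Lists of other cell types held few peaks, and the share of members differed among them. The hepatocyte list had 5 members among 13 peaks (38.5%): 2 promoter peaks of Ahsg, 1 intergenic peak of Alb, and promoter peaks of Apoa1 and Trf, genes of secreted plasma proteins, where 5.55% of all peaks were members. The Alb peak had 14.3 and 11.5 CPM in liver ILC1s, 17.7 and 18 in liver NK cells, 2.18 and 0.965 in salivary gland ILC1s, and 4.34 and 8.29 in spleen NK cells. The Apoa1 peak had 8.94 and 5.22 CPM in liver ILC1s, 7.82 and 8.74 in liver NK cells, 2.74 and 1.67 in salivary gland ILC1s, and 1.61 and 1.17 in spleen NK cells. None of the 5 was trend-robust, with ratios of 0.960 to 1.74 after scaling. Summed over all 13 peaks, the hepatocyte list had 116 to 137 CPM in the liver libraries and 82.8 to 94.5 in the others. The macrophage list had 1 member of 6, an intergenic peak of C1qa (a complement gene), from 6.63 to 13.0 CPM in the liver libraries and from 0.223 to 3.24 in the others, and it was trend-robust at a ratio of 2.10. Other lists had 1 of 8 for stellate cells (Col1a2), 2 of 30 for T cells (Bcl11b and Cd3e), 2 of 10 for neutrophils and mast cells (both at Kit), 1 of 14 for dendritic cells (Siglech), 1 of 2 for salivary gland epithelium (Bpifa2), and none of 19 for endothelium, 3 for cholangiocytes or 3 for red cells. The summed levels of the stellate, neutrophil and mast cell, and salivary gland lists also did not overlap between liver and other libraries, and each was higher in the liver. These sums and that of the hepatocyte list take in members, which the rule chose by the same values. Of all single peaks, 22.6% had every liver library above every other library, and nothing is read from the sums. The part of other cells in the members was not tested.

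Gene families outside these lists were counted by name, without a test, where 5.55% of all peaks were members. Olfactory and vomeronasal receptor genes held 24 members among 144 peaks (16.7%), and predicted genes named Gm and a number 417 among 5856 (7.12%), 56 of them trend-robust. Peak levels of the families were not matched, and in the weaker 5 deciles 9.59% of peaks were members. Zinc finger genes named Zfp held 16 among 616 (2.60%). Genes with the most members were Gm20388, a predicted locus with 82 assigned peaks (8 members), Gm5373 (6, all of its peaks), Rora (6), Gm10717 (5, all of its peaks) and Gm26573 (5 of 7).

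How far the members differed between the 2 liver populations was tested with edgeR's quasi-likelihood method over all peaks. Of 2853 members, 53 were higher in liver ILC1s (1.86%, where 9.83% of all 51292 tested peaks were) and 48 were lower (1.68%, where 8.85% were), at a Benjamini-Hochberg adjusted p below 0.05. The rule takes the lower of the 2 liver means, so peaks with a wide gap between them enter less easily, and nothing is read from the lower shares. Espn, which encodes the actin-bundling protein espin, had an exonic peak at chr4:152120171-152121389 with 31.0 and 35.0 CPM in liver ILC1s, 14.1 and 11.2 in liver NK cells, 4.30 and 4.53 in salivary gland ILC1s, and 4.41 and 6.94 in spleen NK cells. It rose in ILC1s (log2 fold change 1.49 ± 0.24 (SE), adjusted p = 3.19e-08). The intergenic peak assigned to Gm14246 rose likewise (log2 fold change 1.82 ± 0.27 (SE), adjusted p = 1.69e-09), as did an intronic peak of Samd12 (log2 fold change 1.70 ± 0.31 (SE), adjusted p = 1.25e-06) and the promoter peak of Trgj4 (log2 fold change 1.35 ± 0.28 (SE), adjusted p = 2.9e-05), a joining segment of the T cell receptor gamma locus. A promoter peak of Sept9 and an intronic peak of Gm20388 completed the 6 with the smallest p. The intergenic Sept9 peak with the ratio of 6.67 went the other way (log2 fold change -1.13 ± 0.36 (SE), adjusted p = 0.0137).

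Lower in liver ILC1s than in liver NK cells were peaks at 1600002D24Rik, Trpm2, Gm19583, Slain2, Sdk1 and Gm12111. The promoter peak of Trpm2 (chr10:77930454-77930998), a cation channel gene, had 5.06 and 3.11 CPM in liver ILC1s, 13.8 and 9.27 in liver NK cells, 0.498 and 0.445 in salivary gland ILC1s, and 1.12 and 2.34 in spleen NK cells. It fell in ILC1s (log2 fold change -1.43 ± 0.39 (SE), adjusted p = 0.00253), but without the first liver NK library its adjusted p was 0.115. The intergenic peak assigned to Slain2, a microtubule regulator, was trend-robust and fell by 0.80 ± 0.23 (SE) on the log2 scale (adjusted p = 0.00481), with 0.136 without that library. Without it 5 members were lower in ILC1s in place of 48, and without the second liver ILC1 library 1 was. Of the transcription factor members, 1 peak of Zbtb16 at chr9:48830300-48830830 rose in ILC1s (log2 fold change 1.43 ± 0.39 (SE), adjusted p = 0.00327), and the Irf4 peak fell (log2 fold change -0.67 ± 0.26 (SE), adjusted p = 0.0482). Among hepatocyte-list members the Trf peak rose (log2 fold change 1.39 ± 0.39 (SE), adjusted p = 0.00357). Of the 209 trend-robust members, 1 was higher (0.478%, where 9.83% of all tested peaks were) and 4 were lower (1.91%, where 8.85% were). The rule lowers these shares too, and nothing is read from them.

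**Figure D3:**
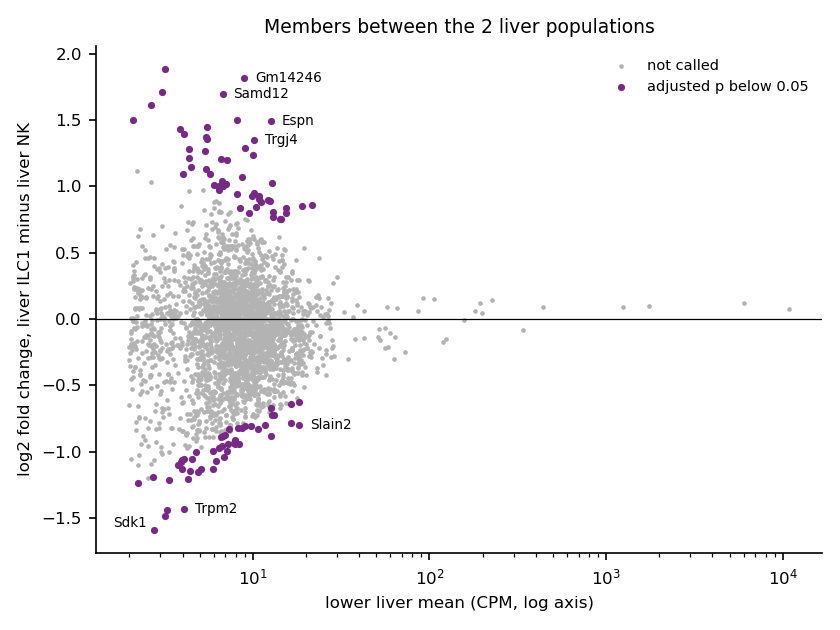
Each point is a member; the x axis is the lower liver mean in CPM (log axis) and the y axis the log2 fold change of liver ILC1s minus liver NK cells from edgeR. Purple points passed an adjusted p of 0.05, 53 above the line and 48 below it; members above about 30 CPM lie close to 0.

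The members were also compared between the populations in which they are low. In salivary gland ILC1s against spleen NK cells, 33 members were higher (1.16%, where 22.0% of all peaks were) and 1202 were lower (42.1%, where 26.2% were), with a median log2 fold change of -0.56 against -0.09 over all peaks. The rule sets an upper limit on both means, so the members' shares are partly fixed by it. Among the other peaks of the weaker 5 deciles 21.5% were higher and 27.2% lower. The C1qa peak fell in salivary gland ILC1s (log2 fold change -2.89 ± 0.48 (SE), adjusted p = 1.21e-08), as did the Alb peak (log2 fold change -2.08 ± 0.32 (SE), adjusted p = 7.72e-10), the Bpifa2 peak (log2 fold change -2.63 ± 0.37 (SE), adjusted p = 1.37e-11) and 3 of the 6 Rora peaks, among them that at chr9:69091978-69093090 (log2 fold change -2.26 ± 0.30 (SE), adjusted p = 1.22e-12). The Ccr8 promoter peak rose (log2 fold change 0.79 ± 0.26 (SE), adjusted p = 0.00583). Leaving out 1 library at a time took the higher members from 33 to between 10 and 21.

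RNA of the genes assigned to members was compared between liver ILC1s, as the mean of DN, FMSP and DP, and liver NK cells. Of the 2044 genes, 1618 were in the RNA table and 1212 had enough counts for the test. Of these, 76 were higher in ILC1s (6.27%, where 2.90% of all 17124 tested genes were) and 48 were lower (3.96%, where 3.02% were). Among all genes with 3 or more assigned peaks the shares were 5.76% and 6.65%, and among member genes with as many peaks 8.50% and 5.27%. With the mouse as a block, 119 genes were higher and 80 lower. In bulk libraries fewer cells of a type and less RNA per cell cannot be told apart. The hepatocyte list summed to 69.4 to 227 CPM of RNA in NK libraries and 181 to 2987 in ILC1 libraries. Without the 3 ILC1 libraries highest in it (DN of mouse 2, FMSP of mice 5 and 6) the counts were 73 and 49. For this fit and the mouse block, the shares of all tested genes are not given here. Nothing about member genes is read from the counts of those fits.

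Genes with RNA near 0 in NK cells led the higher set. Ccr8, a chemokine receptor of resident lymphocytes, had 0 counts in the 4 NK libraries and 2.42 to 37.6 CPM (median 9.72) in the 11 ILC1 libraries, at least 993-fold higher against a floor of 3 counts over the NK group. Clec2l, a C-type lectin-like gene, and Mrgpra9, an orphan receptor gene of the Mas family, were also at 0 in NK cells, with 1.39 to 35.9 CPM (median 14.7) and 0 to 24.4 CPM (median 10.3) in ILC1s, at least 1176-fold and 889-fold higher. Cd200r2, a receptor gene of the CD200R family, had 1.13, 0.684, 0.0487 and 0.105 CPM in NK cells and 46.7 to 301 CPM (median 221) in ILC1s. Atp8a2, a phospholipid flippase gene, and Zmat4 were at most 0.539 and 0.0487 CPM in NK cells and at least 59.0 and 5.63 in ILC1s. In all 6 genes edgeR's adjusted p was between 2.04e-06 and 0.00463, and the libraries of the groups did not overlap except for Mrgpra9, which was at 0 in the DN library of mouse 2. Of the member peaks of these 6 genes, only that of Atp8a2 rose in liver ILC1s (log2 fold change 0.81 ± 0.26 (SE), adjusted p = 0.0153). The Ccr8 promoter peak, with 17.9 and 20.2 CPM in liver ILC1s, 20.3 and 15.5 in liver NK cells, 7.16 and 9.43 in salivary gland ILC1s, and 3.99 and 5.58 in spleen NK cells, had a log2 fold change between the liver populations of 0.20 ± 0.24 (SE) and was not called.

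Lower in ILC1s were Kcnip3, St5, Rap1gap2, Car5b, Pald1 and Padi4. Car5b, a mitochondrial carbonic anhydrase, had 125, 102, 127 and 133 CPM in NK cells and 0.901 to 21.0 CPM (median 4.45) in ILC1s, and fell (log2 fold change -4.38 ± 0.38 (SE), adjusted p = 4.54e-06). Kcnip3, a calcium sensor that also represses transcription, had 50.7, 100.2, 176 and 99.7 CPM against 0 to 8.57 CPM (median 1.6) (log2 fold change -5.40 ± 0.66 (SE), adjusted p = 9.7e-05). Padi4, which converts arginine to citrulline in histones, had 39.0, 24.7, 28.1 and 23.3 CPM against 0 to 4.72 CPM (median 2.25) (log2 fold change -3.66 ± 0.74 (SE), adjusted p = 0.00617). Each NK library was above each ILC1 library for these 3 genes. The 7 member peaks of the 6 genes had log2 fold changes of -0.33 to 0.42 between the same populations, and none was called.

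**Figure D4:**
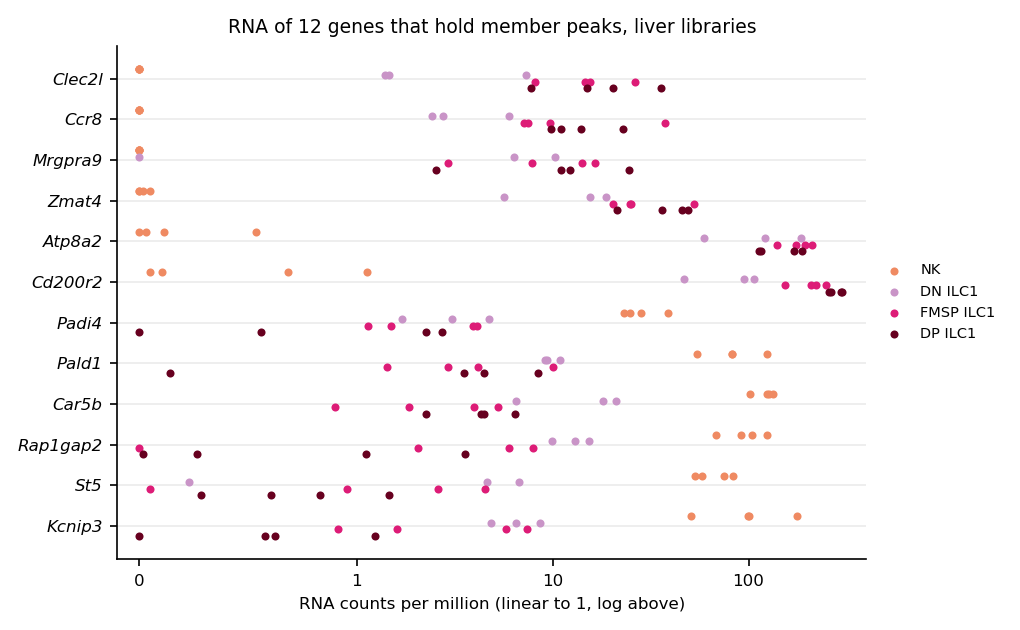
RNA CPM (linear to 1, log above) of the 12 genes with member peaks and the largest called fold changes, 6 per direction, among those at 10 CPM or more in a group; each point is a library, grouped by population. The top 6 genes are at or near 0 in NK cells, and the lower 6 lie above 20 CPM in all NK libraries and below them in all ILC1 libraries.

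Transcription factor genes with members moved in both directions in RNA. Bcl11b, a factor of T cells and ILCs, had 3.79, 11.6, 8.06 and 5.19 CPM in NK cells and 33.6 to 112 CPM (median 67.9) in ILC1s and rose (log2 fold change 3.28 ± 0.37 (SE), adjusted p = 4.9e-05). Tox rose (log2 fold change 1.68 ± 0.23 (SE), adjusted p = 0.000228), and Bach2 (log2 fold change -1.58 ± 0.22 (SE), adjusted p = 0.000279) and Runx2 (log2 fold change -1.10 ± 0.22 (SE), adjusted p = 0.00495) fell. Rora had 9.02, 18.8, 15.8 and 11.9 CPM in the NK libraries of mice 1, 4, 5 and 6 and 13.1 to 137 CPM (median 49.7) in ILC1 libraries, and its level moved with the mice: the 3 ILC1 libraries of mice 2 and 3 had 13.1 to 15.2 CPM and the 8 of mice 4 to 6 had 34.5 to 137. Without the mouse in the fit Rora was not called (log2 fold change 1.98 ± 0.58 (SE), adjusted p = 0.0619). With the mouse as a block it rose (log2 fold change 2.06 ± 0.29 (SE), adjusted p = 0.00134). Zbtb16, likewise not called without the block (log2 fold change 1.33 ± 0.46 (SE), adjusted p = 0.126), rose with it (log2 fold change 1.80 ± 0.44 (SE), adjusted p = 0.0252), and Tgfbr1 did the same (log2 fold change 1.29 ± 0.44 (SE), adjusted p = 0.117 without and log2 fold change 1.59 ± 0.19 (SE), adjusted p = 0.000449 with it). Col1a2, Gpi1 and Tnfaip3 were also called only with the block, with log2 fold changes of -6.60 ± 1.26 (SE), 0.42 ± 0.10 (SE) and -0.78 ± 0.18 (SE). Col1a2 was near 0 in most libraries, with 0, 0.130, 5.85 and 0.629 CPM in NK cells and a median of 0 in ILC1s. Its highest level was 52.0 CPM in the DN library of mouse 2, that mouse's only library, which the block sets aside. Nfil3 had a log2 fold change of -0.07 ± 0.22 (SE) and was called in neither fit. Thy1 (log2 fold change 1.64 ± 0.27 (SE), adjusted p = 0.00136), Cd3e (log2 fold change 3.45 ± 0.84 (SE), adjusted p = 0.0219) and Trf (log2 fold change 1.93 ± 0.26 (SE), adjusted p = 0.000207) rose. The T cell list, which holds Cd3e and Bcl11b, summed to 515 to 803 CPM of RNA in NK libraries and 2092 to 3275 in ILC1 libraries, 9 of its 14 genes were higher in ILC1s and none lower, and none was at 0 in every library. The part of T cells in these rises was not tested. Of the hepatocyte genes, Alb reached 2.83 to 608 CPM (median 22.2) in ILC1 libraries and 19.3, 35.5, 8.92 and 7.89 CPM in NK libraries, with a log2 fold change of 1.48 ± 0.87 (SE), and was not called. At the locus of the Ugt1a10 peak, Ugt1a10 had 0 counts in all 11 ILC1 libraries and 0.0750, 4.61, 8.71 and 11.2 CPM in the NK libraries, and Ugt1a1 was above 0 in 6 ILC1 libraries, at up to 7.37 CPM, and in 1 NK library. These 2 genes share exons, so the split of reads between them is uncertain. RNA of Gm10800 followed the mice: the 4 libraries of mice 1 to 3 had 0.743 to 15.8 CPM and the 11 of mice 4 to 6 had 66.1 to 731.

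Promoter-type members were assigned to genes with less RNA than promoter-type peaks in general. Tested genes with a promoter-type member had a median of 3.92 CPM over the liver libraries, against 29.8 for all genes with a promoter-type peak, and 72.5% of those in the table had enough counts for the test, against 90.1%. Over all types the medians were 9.24 CPM for member genes and 24.9 for genes with any peak. Of promoter-type members, 26.7% had their centre within 1 kb of a RefSeq start, against 52.4% of all promoter-type peaks. Most members are weak peaks, and no promoter peaks of matched level were compared, so the difference is a description.

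Both readouts were called for 14 members, which are named here because of it. Of the 101 members called between the liver populations, 88 had a gene and 56 had one tested in RNA. In 13 of the 14 the peak and the RNA changed in the same direction, upward in ILC1s each time. They lay at Zfp652, Atp8a2, Rcbtb2, Ctif, Sgms1 (2 peaks), Bmp7, Pde11a, St6galnac3, Pdzk1, Espn, Rab4a and Trf. The 2 Sgms1 peaks share the RNA value of that gene. The share over all peaks called in both readouts is not given here, so nothing about the members is read from the 13. Espn had 0, 2.33, 0.519 and 0.0299 CPM in NK cells and 32.3 to 65.1 CPM (median 42.8) in ILC1s (log2 fold change 5.96 ± 1.06 (SE), adjusted p = 0.00227). Rcbtb2 rose by 1.26 in the peak and 2.16 in RNA on the log2 scale, and St6galnac3, a sialyltransferase gene, by 0.84 in the peak and 3.38 in RNA on the log2 scale. Sgms1, a sphingomyelin synthase gene, rose by 1.00 and 1.02 in the peaks and 3.81 in RNA on the log2 scale. The exception was Adamts17, a metalloprotease gene, with log2 fold changes of -0.81 in its peak and 8.58 in its RNA, which did not pass once the mouse entered the fit (adjusted p = 0.0846).

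Start-site windows inside members were described by base content and short patterns. Of 32817 RefSeq windows, 11892 lay wholly inside a peak and 123 inside 101 members. Member windows had a median of 60.7% G and C and 15 CpG pairs, against 62.0% and 22 in all 11892 windows and 57.3% and 13 in the 739 windows of other peaks in the weaker 5 deciles. T-box (GGTGTGA) was found in 5.69% of member windows, 3.45% of all windows and 4.87% of the weak set. ETS (CAGGAAG) was found in 16.3%, 12.9% and 16%, RUNX (TGTGGTT) in 2.44%, 3.99% and 5.28%, and E-box (CAGCTG) in 20.3%, 14.3% and 17.9%. IRF (GAAANNGAA) was found in 2.44%, 6.71% and 6.90%, NFAT (TGGAAAA) in 1.63%, 4.25% and 6.09%, AP-1 (TGANTCA) in 5.69%, 4.63% and 9.34%, and HNF4 (CAAAGTCCA) in 0.813%, 0.235% and 0.541%. The other 7 patterns were in 1.63% to 22.8% of member windows: KLF (GGGNGTGG), STAT (TTCNNNGAA), TCF (TTCAAAG), FOX (TGTTTAC), NF-kB (GGGANTTCC), NR4A (AAAGGTCA) and CEBP (TTGCNNCAA). Both strands were read, matches of different patterns could share bases, and TCF and HNF4 share the run CAAAG. A difference of 1 percentage point is about 1 window, so these shares are a description.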

How the data were processed

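The authors deposited ATAC-seq counts, whole reads per peak in 8 libraries with each peak's type and gene, and RNA-seq expected counts (already rounded to integers) of genes in 15 libraries. Per the submitters' processing notes, Bowtie2, SAMtools, MACS2, DESeq2 and Salmon 1.6 were used with build mm10; their settings are not given in the sources used here. ATAC CPM was the count divided by the column sum, averaged over 2 libraries. RNA CPM of single genes used TMM-adjusted library sizes. Sums over gene lists, the folds against a floor and the label check used column sums instead. Coordinates were compared with RefSeq windows of GRCm38.p6, a patch of the assembly that mm10 names.

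Differences were tested with edgeR 4.0.16 in R 4.3.3 (TMM scaling, at least 10 counts by filterByExpr, robust quasi-likelihood, all libraries of an assay in 1 fit, Benjamini-Hochberg threshold 0.05) over 51292 peaks and 17124 genes, and were tested on simulated data. DESeq2 1.42.0 was an alternative. Level-trend scaling subtracted from each library's log2 CPM a lowess curve (span 0.3) against mean level.

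The members and the 23 gene lists were chosen with earlier results of these data known. Beyond genes of those lists, the text names the 8 members with the highest liver level, the 8 with the highest ratio at 4 CPM or more, up to 6 per direction called between liver populations, the 5 genes with most members, up to 6 genes per direction with the largest called RNA change at 10 CPM or more, and the 3 members and 3 other peaks nearest each threshold. Any other gene was named after its values were seen. Some results of the lists are not reported here.

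RNA labels number the mice, so populations of 1 mouse are paired. Deviations of same-mouse libraries correlated at 0.03 to 0.47 (median 0.12) over 16 pairs. Those of different mice correlated at -0.33 to 0.45 (median -0.03) over 68 pairs, so the ranges overlap. ATAC labels give replicate numbers 1 and 2 without saying that 1 mouse gave all populations. Same-numbered libraries correlated at -0.12 to 0.18 and differently numbered ones at -0.18 to 0.12. With 2 ATAC libraries per group, p-values measure the spread between these libraries only. As a label check, RNA of Eomes was 343 to 472 CPM in NK and 0.332 to 130 in ILC1 libraries, and summed Cxcr6 peaks were higher in liver ILC1 than in liver NK libraries.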

Additional observations from a re-analysis of the deposited data

Results flagged for a closer look

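Among 36 groups of 4 RNA libraries examined for the named genes, 2 had a library far from the other 3, where chance flags about 1 in 20 groups. Ccr8 RNA was 37.6 CPM in the FMSP library of mouse 3, against 7.10 to 9.72 CPM in the other 3 FMSP libraries. Zmat4 RNA was 52.5 CPM in the FMSP library of mouse 5, against 20.4 to 25 CPM in the other 3. Both genes were called higher in ILC1s under all 22 alternatives run for them.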

How the results depend on the processing

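The number of members depended on scaling and threshold: 1097 with TMM-adjusted library sizes, 980 with DESeq2 size factors, 210 with level-trend scaling (chosen after seeing the data), 8074 at a fold of 1.5, 418 at a fold of 3, and 1705 to 4106 with 1 library left out. It was 3069 and 2530 at limits of 1 and 4 CPM. Between the liver populations, 53 members were higher and 48 lower in ILC1s; library totals alone gave 33 higher, level-trend scaling 84 higher and 26 lower, DESeq2 18 lower, and leaving out 1 library 17 to 44 higher and 1 to 97 lower. Between salivary gland ILC1s and spleen NK cells, level-trend scaling gave 63 higher members, and leaving out 1 library 10 to 21 higher and 873 to 1214 lower. With the replicate block the counts were 56 and 52, and 35 and 1210. For RNA of assigned genes the mouse as a replicate block gave 119 higher and 80 lower, mice 4 to 6 alone 120 and 81, DESeq2 157 higher, and leaving out 1 library 56 to 83 higher and 35 to 55 lower. The cause of these shifts was not tested. Of the 12 named liver-pair peaks, 5 of the 6 higher in ILC1s (Gm14246, Espn, Samd12, Gm20388 and Trgj4) kept their call in all 11 alternatives, and Sept9 and the 6 lower ones each lost it in 1 or 2. All 12 named RNA genes kept theirs in 22. Of the other RNA genes in the text, Rora, Zbtb16, Tgfbr1, Col1a2, Gpi1 and Tnfaip3 gained a call with the mouse as a block and Adamts17 lost it. With a median of 37 to 71 counts per member and library, depth limits the precision of weak peaks.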
